A study of Mus musculus with 12 samples.

Results

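The genes described here are 55 expressed protein-coding genes spread along mouse chromosome 1, taken by symbol from the deposited count table of 39017 genes. They were selected on their measured RNA levels, which were known to differ between p66High and p66Low tumours. The p66High against p66Low values below therefore chose the genes and carry no test. All 55 were found, all 55 lay on chromosome 1 and all 55 were among the 19370 genes that passed the filter on low counts. Between the first and the last of them lie 178 Mb, and 25 are read from the plus strand and 30 from the minus strand. They make up 55 of the 1133 chromosome 1 genes tested.

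RNA was sequenced from 12 bulk mammary tumours, 3 in each of 4 groups: p66High aggressive, p66Low aggressive, p66High parental and p66Low parental. Every tumour was grown in a female FVB/N mouse, injected at 8 to 12 weeks of age with 250000 cells in PBS and matrigel into the fourth mammary fat pad. All of the cells derive from NIC, an ErbB2-positive mouse breast cancer line without p66ShcA, and the p66High line was engineered for constitutive overexpression of p66ShcA, a protein made from the Shc1 adaptor gene. The parental lines were injected as they were. The aggressive lines came from 2 rounds of selection in the fat pad followed by a return to culture, and the submitters describe them as faster growing and more metastatic. A bulk tumour also holds cells of the host. Each condition stands on 1 line, and the labels give neither the number of founding clones nor the mouse behind each tumour.

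As background, the RNA output of most mammalian genes follows the number of DNA copies of the gene, so a chromosome present in a different number of copies moves many neighbouring and distant genes of that chromosome by a similar and small fold. Such gains and losses of whole chromosomes are common in tumours and in cultured cancer lines. A gene whose RNA level is set by a separate control, such as the cell cycle or the type of cell that makes it, need not follow its chromosome. The genes listed here do unrelated work, from DNA replication and splicing to apoptosis, ubiquitin transfer and metabolism, and their common feature is where they lie. DNA copy number was not analysed here.

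A pair of neighbours among them shows how closely adjacent genes can be placed. Hspd1 encodes the mitochondrial chaperonin Hsp60 (minus strand, mm10, chromosome 1, 55077835 to 55088243) and Hspe1 its cochaperonin Hsp10 (plus strand, 55088132 to 55091307). They start head to head. The RefSeq starts used for the promoters leave 215 bases between them, chr1:55087933-55088147, printed here from GRCm38.p6 on the plus strand because both genes are read outward from this stretch. Capitals mark matches to the core letters of the heat shock element, GAANNTTC or TTCNNGAA, which can overlap and read the same on both strands.
Region between Hspd1 and Hspe1: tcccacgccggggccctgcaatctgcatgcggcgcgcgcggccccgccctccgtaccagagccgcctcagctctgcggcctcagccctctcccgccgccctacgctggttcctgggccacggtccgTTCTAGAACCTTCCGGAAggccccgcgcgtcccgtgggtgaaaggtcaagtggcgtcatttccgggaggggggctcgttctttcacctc
Over promoter windows of all 26794 genes in the RefSeq table, 9.10% hold GAANNTTC and 9.66% hold TTCNNGAA. Of the 49 listed genes with a promoter in the table, 5 hold the first set of letters (10.2%) and 8 the other (16.3%). These are matches of letters only.

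Total counts were 17.4 to 76.1 M (mega-counts) per tumour. Levels are CPM, counts per 1 M counts of the library after adjustment of library sizes by TMM. Shc1 itself, on chromosome 3, stood at 236, 246 and 774 CPM in p66High aggressive tumours, against 60.9, 65.3 and 69.9 CPM in p66Low aggressive tumours, and at 271, 234 and 223 CPM in p66High parental tumours, against 65.0, 59.0 and 69.4 CPM in p66Low parental tumours. All 6 listed epithelial markers were detected, with summed levels of 2134 to 2838, 2043 to 3068, 1965 to 2361 and 2465 to 2901 CPM in p66High aggressive, p66Low aggressive, p66High parental and p66Low parental tumours. B cell and lymph node genes set 3 libraries apart: p66Low aggressive replicates 1 and 2 and p66High parental replicate 3. Their summed T cell markers (5 genes) were 59.7, 108 and 19.4 CPM, and their summed B cell markers (4 genes) 84.2, 118 and 23.4 CPM. In the other 9 tumours the B cell markers summed to at most 1.35 CPM, whereas the T cell markers of p66Low aggressive replicate 3 reached 21.6 CPM. Many results for the listed genes that rest on these libraries are also given without them. Leaving them out keeps 1 p66Low aggressive tumour, assumed to vary like the other groups. In bulk tumours, fewer cells of a type cannot be told apart from less RNA per cell.

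Most of the 55 genes were modestly higher in p66High than in p66Low tumours, with a similar median fold in both settings. Gene by gene the 2 log2 differences did not rise together (Pearson correlation -0.57, Spearman -0.29 across the 55 genes). The correlations include 5 genes far below 0 in aggressive and above 0 in parental tumours, described further on, and were not computed without them. Over all tested genes these correlations were -0.25 and -0.06. In aggressive tumours the median log2 difference was 0.52, a 1.43-fold difference, with quartiles of 0.34 and 0.68 and a range of -2.82 to 1.14. In parental tumours the median was 0.45, a 1.36-fold difference, with quartiles of 0.34 and 0.60 and a range of -0.06 to 1.41. In aggressive tumours 39 genes lay between 1.2-fold and 1.8-fold, and in parental tumours 43 did. The median log2 difference of all tested genes was 0.02 in aggressive and -0.01 in parental tumours.

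Counted gene by gene, all 3 p66High tumours lay above all 3 p66Low tumours for 46 of the 55 genes in the aggressive setting and for 43 in the parental setting. Over all tested genes such a complete separation upward was seen for 19.4% in aggressive and 15.6% in parental tumours. Complete separation downward, with all 3 p66High below all 3 p66Low tumours, was seen for 4 of the 55 in the aggressive setting and for 0 in the parental setting, beside 18.7% and 14.2% of all tested genes. By edgeR's quasi-likelihood test with Benjamini-Hochberg adjustment over all 19370 genes, 37 listed genes were past 0.05 as higher and 4 as lower in p66High aggressive tumours, where 8.92% of all genes were called higher and 12.1% lower. In parental tumours 30 were past it as higher and 0 as lower, where 3.98% of all genes were called higher and 4.1% lower. In either direction 21% of all genes were called in aggressive and 8.08% in parental tumours. In the parental setting 0 were lower at an unadjusted p under 0.05 too, and 0 by DESeq2 or limma-voom. Leaving out single tumours could lower the parental calls over all genes from 1565, to 892, 889 and 871 in the fits that follow. The listed total was then 19 without p66High parental replicate 1, 19 without p66Low parental replicate 1 and 18 without p66Low parental replicate 3. The totals without the 3 lymph node libraries were 8 in aggressive and 15 in parental tumours. These counts describe how the genes were chosen, and nothing is read from them.

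With a log2 difference of 0.25 as the limit, 40 of the 55 genes were raised in both settings. A further 8 escaped the shift in aggressive tumours only, 6 in parental tumours only, and 1, Elk4, in both. The limit is a cut on the value that takes no account of the standard error (SE), and escape was not tested. In parental tumours, for example, Mcm3 stood at 0.02 ± 0.23, Cenpl at 0.11 ± 0.24 and Uck2 at -0.06 ± 0.16. Of the 6, Ncl passed the interaction test given further on. Those just inside the limit in aggressive tumours were Terf1 at 0.27 and Rnpep at 0.29, and those just outside Usf1 at 0.23 and Arpc2 at 0.20. In parental tumours Aspm and Nop58 stood just inside at 0.30, and Elk4 at 0.19 and Nek2 at 0.18 just outside. The number raised in both was 34 without p66Low parental replicate 2 and 39 without the 3 lymph node libraries.

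**Figure D1:**
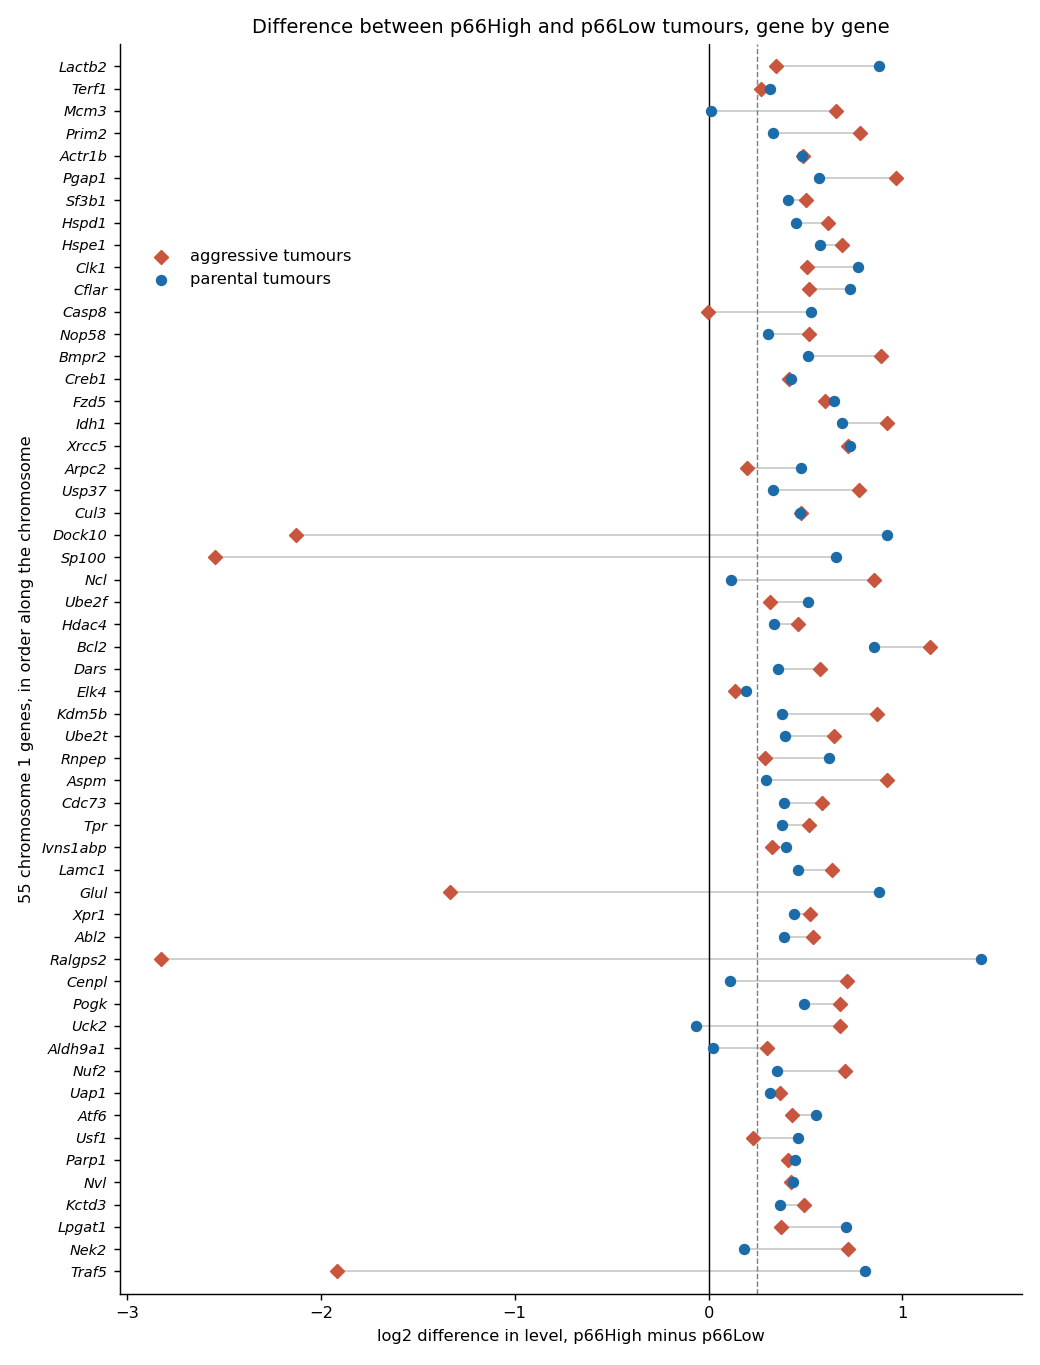
Log2 difference in level, p66High minus p66Low, of the 55 chromosome 1 genes from the start of the chromosome (top) to its end (bottom); diamonds are aggressive tumours, circles parental tumours (3 tumours a group), the solid line is 0 and the dashed line 0.25. Most pairs sit to the right of the dashed line, and 5 genes (Dock10, Sp100, Glul, Ralgps2 and Traf5) have diamonds far to the left, between -2.82 and -1.34.

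The size of the shift was not even across roles. The 6 genes of DNA replication, repair and telomeres had a median log2 difference of 0.65 in aggressive and 0.36 in parental tumours, and the 4 genes of mitosis and the kinetochore 0.72 and 0.24. The 10 metabolic and processing enzymes had medians of 0.37 in aggressive and 0.60 in parental tumours. Gene by gene, though, the median of their aggressive minus parental differences was 0.13. The 4 genes of cell death had medians of 0.26 and 0.77, and a gene-by-gene median of -0.37. The 6 receptors and signalling genes had medians of 0.53 and 0.58, and the 2 mitochondrial chaperones 0.65 and 0.51. The 7 genes of RNA processing and the nucleolus (0.51 and 0.40), the 9 of transcription and chromatin (0.43 and 0.42), the 4 of ubiquitin and Nedd8 transfer (0.49 and 0.42) and the 3 of cytoskeleton and matrix (0.49 and 0.48) lay nearer to each other. In all, 32 genes had the larger difference in aggressive tumours and 23 in parental tumours, and for 13 the values lay within 0.1 of each other.

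Bcl2 (106538178 to 106714274), the founding inhibitor of mitochondrial apoptosis, had the highest mean of both differences. In aggressive tumours it stood at 106, 113 and 74.6 CPM with p66High, against 41.2, 54.1 and 37.5 CPM with p66Low, a log2 difference of 1.14 ± 0.24 (SE). In parental tumours its level was 129, 89.0 and 105 CPM with p66High, against 46.5, 81.4 and 50.8 CPM with p66Low, a log2 difference of 0.85 ± 0.24. No p66High tumour overlapped a p66Low tumour in either setting, although p66Low parental replicate 2 came near the lowest p66High parental tumour. Cflar, which encodes the caspase-8 inhibitor c-FLIP, differed by 0.52 and 0.73 (log2, aggressive and parental). Casp8, the initiator caspase that c-FLIP restrains, and Traf5, an adaptor of tumour necrosis factor receptors, escaped in aggressive tumours and are described further on.

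Idh1 (65158616 to 65186500), the cytosolic NADP-dependent isocitrate dehydrogenase, came next. Its aggressive tumours had 185, 233 and 171 CPM with p66High, against 92.3, 108 and 110 CPM with p66Low, a log2 difference of 0.92 ± 0.14. Its parental tumours had 246, 293 and 212 CPM with p66High, against 149, 167 and 150 CPM with p66Low, a log2 difference of 0.69 ± 0.14. The groups did not overlap in either setting. Pgap1 (54472994 to 54557684), which remodels the lipid anchor of GPI-linked proteins, had 93.0, 86.5 and 91.4 CPM in p66High aggressive tumours, against 52.5, 46.5 and 39.9 CPM in p66Low aggressive tumours. In the parental setting Pgap1 had 90.3, 96.0 and 99.4 CPM in p66High tumours, against 65.6, 59.2 and 67.4 CPM in p66Low tumours. All 6 p66High tumours lay above all 6 p66Low tumours.

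Among the other enzymes, Lpgat1, an acyltransferase of lysophospholipids, differed by 0.38 in aggressive and 0.71 in parental tumours. Lactb2, a metallo-beta-lactamase fold ribonuclease, differed by 0.35 and 0.88, and Rnpep, the aminopeptidase B gene, by 0.29 and 0.62. Dars, the aspartyl-tRNA synthetase, differed by 0.57 and 0.36, and Uap1, which makes UDP-N-acetylglucosamine, by 0.37 and 0.32. Uck2, a uridine and cytidine kinase, differed by 0.68 in aggressive and by -0.06 in parental tumours. Glul, glutamine synthetase, and Aldh9a1, an aldehyde dehydrogenase of carnitine synthesis, were among the 6 lowest by the mean of both differences.

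Xrcc5 (72307421 to 72394952) encodes Ku80, the DNA-end binding partner of Ku70 in end joining. It had 64.1, 56.1 and 57.1 CPM in p66High aggressive tumours, against 36.0, 35.3 and 36.5 CPM in p66Low aggressive tumours. In p66High parental tumours it had 57.0, 67.6 and 61.6 CPM, against 34.5, 36.0 and 41.9 CPM in p66Low parental tumours. The log2 differences were nearly equal, 0.72 ± 0.10 and 0.73 ± 0.10. Parp1, the DNA break sensor, also differed by much the same in both settings, 0.41 in aggressive and 0.45 in parental tumours. So did the telomere-binding gene Terf1, at 0.27 and 0.32.

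The replication genes behaved less evenly. Mcm3, a subunit of the replicative helicase, had 128, 94.3 and 125 CPM in p66High aggressive tumours, against 89.9, 71.3 and 59.3 CPM in p66Low aggressive tumours, a log2 difference of 0.66. Parental tumours had 79.6, 68.0 and 90.1 CPM with p66High, against 85.5, 51.2 and 98.5 CPM with p66Low, and the groups overlapped fully at a log2 difference of 0.02. Prim2, the large primase subunit, differed by 0.78 in aggressive and 0.33 in parental tumours, and Ube2t, the ubiquitin-conjugating enzyme of the Fanconi anaemia pathway, by 0.65 and 0.40.

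All 4 genes of the mitotic apparatus had a log2 difference of 0.70 to 0.92 in aggressive and of 0.11 to 0.35 in parental tumours. Aspm, a spindle pole protein, had 127, 117 and 122 CPM in p66High aggressive tumours, against 86.5, 56.9 and 50.5 CPM in p66Low aggressive tumours. The parental levels were 86.0, 74.6 and 83.8 CPM with p66High, against 76.7, 40.4 and 81.4 CPM with p66Low. The low value there belonged to p66Low parental replicate 2, which was also the lowest of its group for Mcm3, Prim2, Nuf2 and Nek2. Nuf2, of the Ndc80 kinetochore complex, differed by 0.70 and 0.35, Nek2, a centrosomal kinase, by 0.72 and 0.18, and the inner kinetochore gene Cenpl by 0.71 and 0.11.

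Both chaperones of the printed region were raised in both settings. Hspd1 averaged 427 ± 44.5 CPM in p66High aggressive tumours and 278 ± 38.1 CPM in p66Low aggressive tumours (SD, n = 3 each), with 461 ± 22.3 CPM in p66High parental and 337 ± 69.7 CPM in p66Low parental tumours. Hspe1 averaged 118 ± 10.9 CPM in p66High aggressive tumours and 73.3 ± 6.33 CPM in p66Low aggressive tumours, with 115 ± 13.0 CPM in p66High parental and 77.1 ± 14.9 CPM in p66Low parental tumours. No p66High tumour overlapped a p66Low tumour of its setting for either gene, and p66Low parental replicate 2 was lowest of its group for each, at 257 CPM for Hspd1 and 60.2 CPM for Hspe1. Their transcripts overlap by annotation, and without the counting's strand setting their reads cannot be fully told apart.

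Of the genes of RNA processing, Clk1 (58410189 to 58424066), a kinase of splicing factors, had the highest mean. It had 238, 280 and 297 CPM in p66High aggressive tumours, against 190, 204 and 179 CPM in p66Low aggressive tumours. In parental tumours it had 350, 431 and 295 CPM with p66High, against 195, 243 and 193 CPM with p66Low, and the groups were apart in both settings. Sf3b1, the largest SF3b spliceosome subunit, differed by 0.50 in aggressive and 0.41 in parental tumours. The nuclear pore basket gene Tpr (0.52 and 0.38), the box C/D snoRNP gene Nop58 (0.52 and 0.30), the nucleolar ATPase gene Nvl (0.43 and 0.44) and the kelch gene Ivns1abp (0.33 and 0.40) had no overlap between groups in either setting.

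Ncl, which encodes the abundant nucleolar protein nucleolin, stood out in this group. It had 389, 367 and 433 CPM in p66High aggressive tumours, against 250, 206 and 203 CPM in p66Low aggressive tumours, a log2 difference of 0.85 ± 0.15. Parental tumours had 413, 290 and 452 CPM with p66High, against 339, 350 and 376 CPM with p66Low, a difference of 0.12 ± 0.15. Here p66High parental replicate 2 lay below all of the p66Low parental tumours.

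Among receptors and signalling genes, Bmpr2 (59763400 to 59879014), a type II receptor of bone morphogenetic proteins, had 93.2, 115 and 97.0 CPM in p66High aggressive tumours, against 47.8, 51.4 and 65.0 CPM in p66Low aggressive tumours. The parental levels were 97.3, 74.3 and 87.9 CPM with p66High, against 53.1, 71.5 and 57.6 CPM with p66Low. The parental groups came close to touching, and the aggressive groups were wide apart, with log2 differences of 0.89 ± 0.15 and 0.51 ± 0.15 (aggressive and parental). Fzd5, a Wnt receptor, differed by 0.60 and 0.65, the phosphate exporter gene Xpr1 by 0.53 and 0.44, and the tyrosine kinase gene Abl2 by 0.54 and 0.39.

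Several regulators of transcription and chromatin had differences of like size in both settings. The cyclic AMP-responsive factor gene Creb1 differed by 0.42 in both settings, the endoplasmic reticulum stress factor gene Atf6 by 0.43 and 0.56, and the deacetylase gene Hdac4 by 0.46 and 0.34. Kdm5b, an H3K4 demethylase, differed by 0.87 in aggressive and 0.38 in parental tumours, Cdc73, of the Paf1 elongation complex, by 0.59 and 0.39, and the KRAB-domain gene Pogk by 0.68 and 0.49. Usf1, a factor that binds E-boxes, differed by 0.23 and 0.46. Cul3, the scaffold of a ubiquitin ligase family, differed by 0.48 and 0.47, and Ube2f, a Nedd8-conjugating enzyme, by 0.32 and 0.51. Usp37, a deubiquitinase, differed by 0.78 and 0.33, and Kctd3 by 0.49 and 0.37. Lamc1, the laminin gamma-1 chain, differed by 0.64 and 0.46, and the dynactin gene Actr1b by 0.49 and 0.48. Arpc2, of the actin-nucleating Arp2/3 complex, differed by 0.20 and 0.48.

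**Figure D2:**
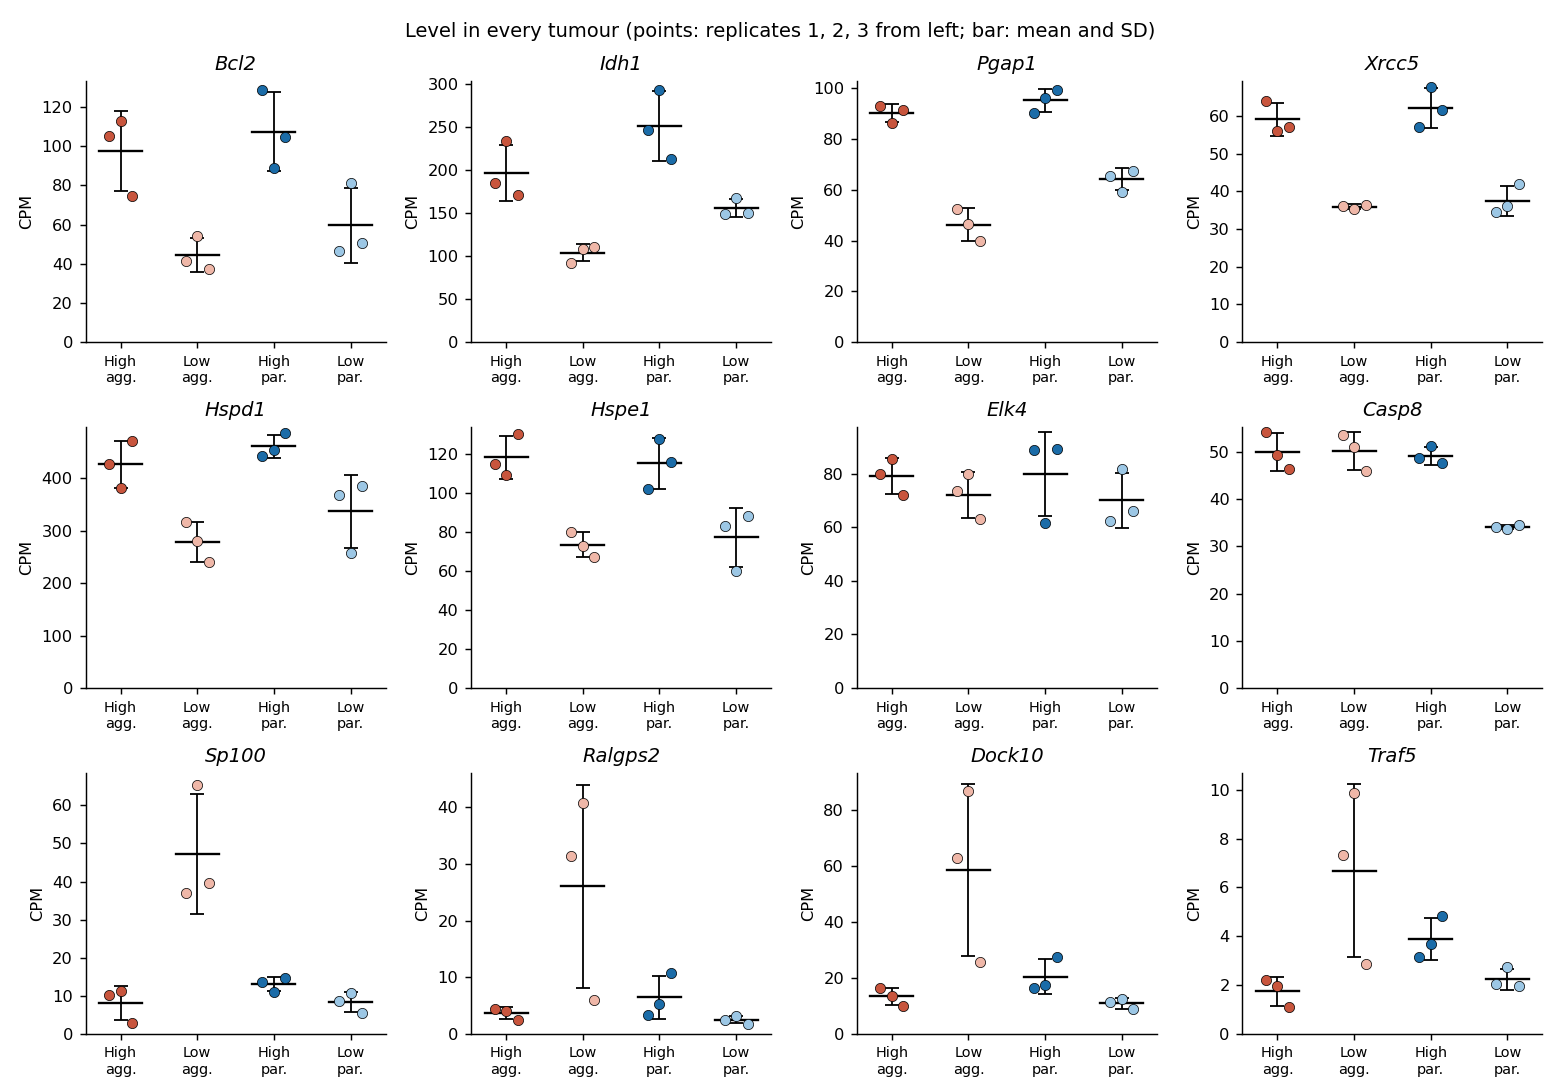
Level in CPM of 12 of the genes in every tumour; points are replicates 1 to 3 from the left, lines and bars the mean and SD (n = 3), and each panel runs p66High aggressive, p66Low aggressive, p66High parental, p66Low parental. In the top row each p66High group sits above the p66Low group of its setting, while Sp100, Ralgps2, Dock10 and Traf5 are highest in p66Low aggressive tumours.

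Elk4 was the 1 listed gene under 0.25 in both settings. It encodes an ETS-family partner of serum response factor and lies at 132007607 to 132032612. It had 79.8, 85.6 and 71.9 CPM in p66High aggressive tumours, against 73.5, 79.7 and 62.9 CPM in p66Low aggressive tumours. In parental tumours it had 88.9, 61.7 and 89.0 CPM with p66High, against 62.3, 81.7 and 65.9 CPM with p66Low. Both pairs of groups overlapped, at log2 differences of 0.14 ± 0.16 and 0.19 ± 0.16. Without the 3 lymph node libraries its aggressive difference was 0.35, so its place outside the shift in that setting depends on them. Its parental difference reached 0.25 without p66Low parental replicate 2 or without p66High parental replicate 2. It did so too with tumours of a shared title number summed. With library size alone, or without p66Low aggressive replicate 3, Aldh9a1 was also under 0.25 in both settings. Aldh9a1 (167349991 to 167368532) was nearly level in the parental setting only. It had 35.8, 33.1 and 35.8 CPM in p66High aggressive tumours, against 33.0, 26.3 and 25.9 CPM in p66Low aggressive tumours. Parental tumours had 32.7, 24.3 and 35.9 CPM with p66High, against 30.4, 28.4 and 32.8 CPM with p66Low. Its aggressive groups just missed each other and its parental groups overlapped, with log2 differences of 0.30 and 0.02.

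The 5 lowest genes by the mean of both differences were far below 0 in aggressive and above 0 in parental tumours. Sp100 (85649988 to 85709998), an interferon-inducible component of PML nuclear bodies, had 10.2, 11.2 and 2.80 CPM in p66High aggressive tumours, against 36.9, 65.5 and 39.7 CPM in p66Low aggressive tumours. In p66High parental tumours it had 13.5, 11.0 and 14.8 CPM, against 8.72, 10.8 and 5.56 CPM in p66Low parental tumours. The log2 differences were -2.54 ± 0.43 in aggressive and 0.65 ± 0.42 in parental tumours, and every p66Low aggressive tumour stood above all of the other 9. Sp100 has related copies on the same chromosome, so its reads may be shared with them.

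Ralgps2 (156804166 to 156939626), an exchange factor for Ral GTPases, spanned the widest range of all 55. It had 4.44, 4.08 and 2.41 CPM in p66High aggressive tumours, against 31.5, 40.7 and 5.98 CPM in p66Low aggressive tumours. The parental levels were 3.36, 5.24 and 10.7 CPM with p66High, against 2.51, 3.08 and 1.79 CPM with p66Low. The high values lay in p66Low aggressive replicates 1 and 2 and p66High parental replicate 3, the 3 lymph node libraries. Dock10 (80501073 to 80758527), an exchange factor for small GTPases, showed the same 3 libraries on top. Its levels were 16.3, 13.7 and 10.05 CPM in p66High aggressive tumours, against 63.1, 87.0 and 25.8 CPM in p66Low aggressive tumours. Its parental levels were 16.4, 17.4 and 27.5 CPM with p66High, against 11.2, 12.5 and 8.86 CPM with p66Low.

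Traf5 (191997205 to 192092559) had 2.21, 1.96 and 1.08 CPM in p66High aggressive tumours, against 7.34, 9.87 and 2.85 CPM in p66Low aggressive tumours. In parental tumours it had 3.13, 3.69 and 4.83 CPM with p66High, against 2.02, 2.72 and 1.95 CPM with p66Low. The same libraries were again the highest of their groups. Glul (153899944 to 153909723) had 38.7, 29.5 and 12.5 CPM in p66High aggressive tumours, against 96.7, 73.1 and 35.3 CPM in p66Low aggressive tumours. Its parental levels were 76.9, 67.2 and 39.1 CPM with p66High, against 46.9, 23.6 and 28.9 CPM with p66Low. Its groups overlapped in both settings, and p66High parental replicate 3, the highest of its group for Ralgps2, Dock10 and Traf5, was the lowest for Glul.

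Markers of other cells, summed over each whole list, also differed between these groups. The 5 T cell markers summed to 1.29 to 5.58 CPM in p66High aggressive tumours and 21.6 to 108 CPM in p66Low aggressive tumours, and to 2.89 to 19.4 CPM in p66High parental and 1.59 to 3.16 CPM in p66Low parental tumours. The 4 B cell markers summed to 0.345 to 0.939 CPM in p66High aggressive and 0.799 to 118 CPM in p66Low aggressive tumours, with 0.985 to 23.4 CPM in p66High parental and 0.156 to 0.756 CPM in p66Low parental tumours. The 6 adipocyte markers, beside Glul, summed to 8.19 to 84.5 CPM in p66High aggressive and 25.4 to 205 CPM in p66Low aggressive tumours, and to 87.5 to 247 CPM in p66High parental and 16.6 to 101 CPM in p66Low parental tumours. The 4 macrophage markers summed to 75.8 to 176 CPM in p66High aggressive and 147 to 316 CPM in p66Low aggressive tumours, and to 176 to 245 CPM in p66High parental and 127 to 174 CPM in p66Low parental tumours. The 5 fibroblast markers summed to 875 to 1937 CPM in p66High aggressive and 1233 to 2972 CPM in p66Low aggressive tumours, and to 1418 to 1902 CPM in p66High parental and 1260 to 1564 CPM in p66Low parental tumours. The 5 endothelial markers summed to 59.9 to 116 CPM in p66High aggressive and 77.5 to 162 CPM in p66Low aggressive tumours, and to 134 to 161 CPM in p66High parental and 108 to 114 CPM in p66Low parental tumours. Of these 6 sums, that of the T cell markers did not overlap between the aggressive groups, and those of the B cell, macrophage and endothelial markers did not overlap between the parental groups. No listed marker was at 0 in all tumours, and the part of these cells in the values of the 5 genes was not tested. The aggressive log2 differences without the 3 lymph node libraries were -2.28 for Sp100, -0.93 for Dock10, -0.69 for Ralgps2, -0.68 for Traf5 and -0.37 for Glul, all still below 0. Of those 5 values, that of Sp100 stayed closest to the one with all tumours.

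Casp8 (58795374 to 58847503) stood near 0 in aggressive tumours without such spread. It had 54.3, 49.3 and 46.4 CPM in p66High aggressive tumours, against 53.6, 51.1 and 45.9 CPM in p66Low aggressive tumours. Parental tumours had 48.7, 51.4 and 47.6 CPM with p66High, against 34.0, 33.8 and 34.5 CPM with p66Low. Thus 3 of its 4 groups stood at one level and the p66Low parental group below it, with log2 differences of -0.00 ± 0.09 in aggressive and 0.53 ± 0.09 in parental tumours.

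The comparison of aggressive with parental tumours did not choose the genes and can be tested, although it shares tumours with those that did. Across the 55 genes it showed little common movement, with a median log2 difference of 0.01 within p66High and -0.02 within p66Low tumours. Within p66Low tumours 9 of the 55 genes rose and 3 fell with selection by edgeR's quasi-likelihood test, where 9.6% of all genes tested rose and 7.03% fell. Within p66High tumours 3 rose and 0 fell, where 3.11% of all genes rose and 2.82% fell. In that comparison 6 were lower at an unadjusted p under 0.05 by edgeR, and 0 fell by DESeq2 or limma-voom either. In either direction 12 of the 55 were called within p66Low tumours, where 16.6% of all genes were, and 3 within p66High tumours, where 5.94% were. All 3 aggressive tumours lay above all 3 parental ones for 14 of the 55 genes within p66High and 14 within p66Low tumours (16.5% and 16.2% of all genes), and below them for 7 and 6 (16% and 16.6%). The p66Low count was 6 without p66Low parental replicate 3 and 3 without the lymph node libraries. The p66High count was 5 without p66Low parental replicate 2 and 1 without p66High parental replicate 1, 2 or 3, without p66High aggressive replicate 1 or without the lymph node libraries.

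Fzd5 rose with selection in both lines. It had 155, 141 and 145 CPM in p66High aggressive tumours, against 102, 67.1 and 83.6 CPM in p66High parental tumours (log2 difference 0.80 ± 0.15, edgeR adjusted p = 0.00954). In p66Low aggressive tumours it had 82.4, 93.1 and 114 CPM, against 52.3, 54.8 and 54.1 CPM in p66Low parental tumours (0.85 ± 0.15, edgeR adjusted p = 0.0038). Neither pair of groups overlapped, and the responses differed by -0.04, which did not pass the test. Both calls held without each tumour in turn, and without the 3 lymph node libraries (edgeR adjusted p = 0.0346 and 0.0165).

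Pogk and Usp37 rose within p66High tumours. Pogk had 156, 154 and 142 CPM in p66High aggressive tumours, against 114, 107 and 106 CPM in p66High parental tumours (0.46 ± 0.10, edgeR adjusted p = 0.0203). Usp37 had 125, 117 and 129 CPM in p66High aggressive tumours, against 96.4, 88.9 and 97.6 CPM in p66High parental tumours (0.39 ± 0.09, edgeR adjusted p = 0.0256). Every aggressive tumour lay above every parental one for both genes. The Pogk call was lost without any of p66High parental replicates 1, 2 and 3 or p66High aggressive replicates 1 and 2, at an edgeR adjusted p of 0.0517 to 0.071. The Usp37 call was lost without any of p66High parental replicates 1, 2 and 3 or p66High aggressive replicates 1 and 3, at an edgeR adjusted p of 0.0699 to 0.106. Titles share a number between p66High aggressive replicates 1 and 2 and between p66High parental replicates 1 and 2. Summing the tumours of each such pair ended both calls (edgeR adjusted p = 0.124 for Pogk and 0.129 for Usp37), as did leaving out the lymph node libraries (0.0542 and 0.0884). The Usp37 call was also lost with library size alone as the scaling or without a filter on low counts (0.0591 and 0.0503).

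Within p66Low tumours, Lpgat1 had 162, 153 and 163 CPM in aggressive tumours, against 111, 104 and 98.7 CPM in parental tumours (0.61 ± 0.09, edgeR adjusted p = 0.002). Casp8, at the levels given above, rose by 0.56 ± 0.09 (edgeR adjusted p = 0.00237). Dock10 rose by 2.44 ± 0.39, Sp100 by 2.51 ± 0.43, Ralgps2 by 3.41 ± 0.65 and Traf5 by 1.59 ± 0.41, with edgeR adjusted p-values of 0.00243, 0.00356, 0.00559 and 0.024. In each of these the p66Low aggressive group lay wholly above the p66Low parental group. Without the 3 lymph node libraries Dock10 still rose, by 1.25 (edgeR adjusted p = 0.0329). Without those libraries Sp100 differed by 2.25, Ralgps2 by 1.28, Traf5 by 0.36, Casp8 by 0.42 and Lpgat1 by 0.63, none of them past the threshold (edgeR adjusted p = 0.0601, 0.13, 0.701, 0.129 and 0.0555). Traf5 also lost its call without p66Low parental replicate 1 or 3 or p66Low aggressive replicate 1 or 2, at an edgeR adjusted p of 0.0595 to 0.109. By limma-voom neither Ralgps2 nor Traf5 passed (adjusted p = 0.0746 and 0.0987), and Traf5 was lost in a fit of only the tumours compared (edgeR adjusted p = 0.066).

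The 3 genes that fell did so in p66Low tumours. Pgap1 fell by 0.47 ± 0.10 (edgeR adjusted p = 0.0104), Ncl by 0.69 ± 0.15 (edgeR adjusted p = 0.0109) and Idh1 by 0.58 ± 0.14 (edgeR adjusted p = 0.0173). Their p66Low aggressive tumours all lay below their p66Low parental tumours, at the levels already given. Pgap1 kept its call without the lymph node libraries, at -0.69 (edgeR adjusted p = 0.032), whereas Ncl at -0.81 and Idh1 at -0.50 did not (0.0772 and 0.213). Leaving out single tumours ended the call of Pgap1 (p66Low parental replicate 1 or 3, edgeR adjusted p = 0.0517 and 0.0665), of Ncl (p66Low parental replicate 3 or p66Low aggressive replicate 2, 0.0526 and 0.0505) and of Idh1 (p66Low parental replicate 2 or 3 or p66Low aggressive replicate 1, 0.0534 to 0.0643). The last to pass as higher, Rnpep at 0.38 ± 0.10 and Arpc2 at 0.29 ± 0.09 (edgeR adjusted p = 0.0269 and 0.0375), were lost without the lymph node libraries (0.277 and 0.35). Rnpep was also lost without any single p66Low parental or p66Low aggressive tumour (0.0525 to 0.089), and Arpc2 without 7 of the 12 tumours, namely p66Low parental replicates 1 and 3, all p66Low aggressive replicates, p66High parental replicate 1 and p66High aggressive replicate 2 (0.0528 to 0.143). A fit of only the tumours compared ended the calls of Pgap1 and Arpc2 (edgeR adjusted p = 0.0741 and 0.0515), library size alone that of Pgap1 (0.0833) and no filter on low counts that of Arpc2 (0.0792).

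**Figure D3:**
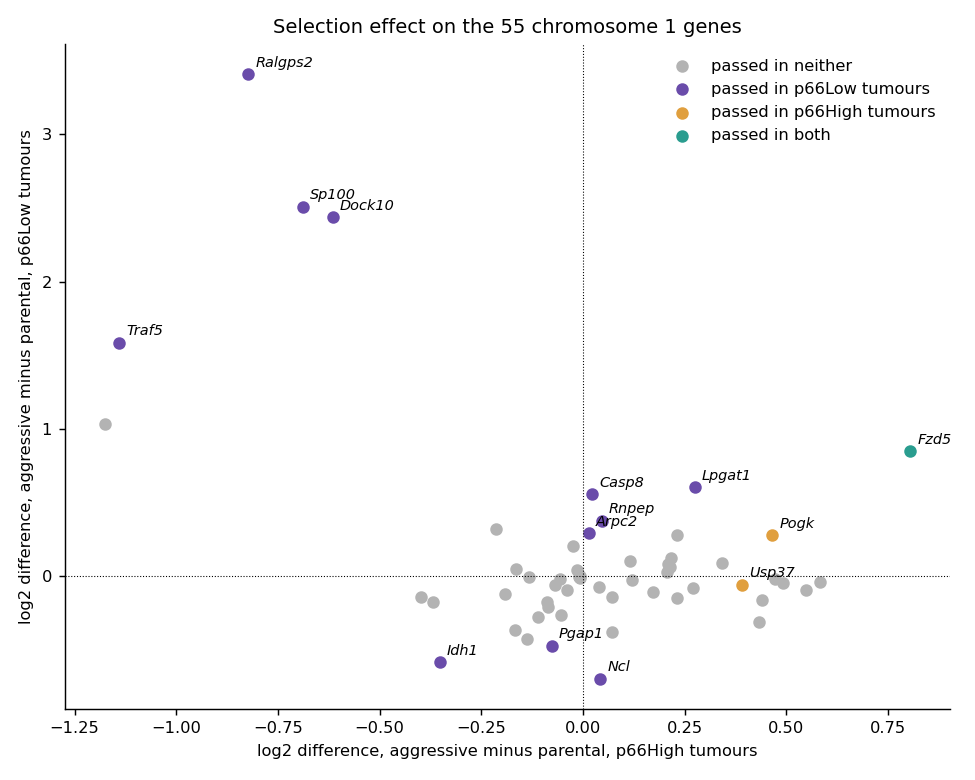
Log2 difference between aggressive and parental tumours of the 55 genes within p66High (horizontal axis) and within p66Low tumours (vertical axis), 3 tumours a group; colour shows where a gene passed edgeR's quasi-likelihood test with Benjamini-Hochberg adjustment. Most genes lie near 0 on both axes, Fzd5 at 0.80 and 0.85 is the gene past the test in both, and Ralgps2, Sp100, Dock10 and Traf5 lie at the upper left.

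Whether the p66High against p66Low shift itself differed between aggressive and parental tumours was tested as an interaction, with the reservation that both shifts helped to choose the genes. For 8 of the 55 genes it did, 2 with the larger and 6 with the smaller value in aggressive tumours, where 4.37% and 7.99% of all tested genes did. Dock10 differed by -3.05 ± 0.53, Sp100 by -3.20 ± 0.60, Ralgps2 by -4.23 ± 0.87 and Traf5 by -2.73 ± 0.59, with edgeR adjusted p-values of 0.00713, 0.00926, 0.0128 and 0.0147. Casp8 differed by -0.53 ± 0.12 and Glul by -2.21 ± 0.63 (edgeR adjusted p = 0.0188 and 0.0431). Usp37 at 0.45 ± 0.13 and Ncl at 0.74 ± 0.21 had the larger shift in aggressive tumours (edgeR adjusted p = 0.0396 and 0.0455). The count was 5 without p66High aggressive replicate 3, p66High parental replicate 1 or p66Low parental replicate 3, and 4 without p66Low aggressive replicate 2. Without the 3 lymph node libraries 0 of the 55 genes passed by edgeR (6 with the larger and 7 with the smaller value were under an unadjusted p of 0.05), and the values of Dock10, Sp100, Ralgps2 and Traf5 were -1.58, -2.85, -1.51 and -1.31 (edgeR adjusted p = 0.0551, 0.0958, 0.197 and 0.238). Without those libraries the interaction values of Casp8, Glul, Usp37 and Ncl were -0.42, -1.50, 0.50 and 0.99. Of single tumours, p66Low aggressive replicate 2 ended the call of Casp8 (edgeR adjusted p = 0.0548). Usp37 kept its call only without p66Low parental replicate 2, p66Low aggressive replicate 1 or p66High aggressive replicate 2, Ncl only without p66High parental replicate 3 or p66Low aggressive replicate 1, and Glul only without p66Low parental replicate 1, p66High parental replicate 3, p66Low aggressive replicate 3 or p66High aggressive replicate 1. The edgeR adjusted p reached 0.117, 0.118 and 0.103 without the others. By limma-voom, Ralgps2, Traf5 and Glul did not pass in the interaction (adjusted p = 0.131, 0.0659 and 0.0713). With tumours of a shared title number summed, Casp8, Glul, Usp37 and Ncl did not (edgeR adjusted p = 0.0543, 0.106, 0.0984 and 0.0713). Usp37 and Ncl were also lost with RLE factors (0.0513 and 0.0542) and with library size alone (0.18 and 0.124), and Usp37 without a filter on low counts (0.0776).

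The rest of chromosome 1 was also higher in p66High tumours. The chromosome itself was picked with these differences known, so its values below are a description. Among the other 827 tested coding genes of chromosome 1, 54.9% were at or above a log2 difference of 0.25 in aggressive and 76.1% in parental tumours, with medians of 0.34 and 0.50. By the same edgeR test 335 of them (40.5%) were higher and 113 (13.7%) lower in p66High aggressive tumours, and 280 (33.9%) were higher and 12 (1.45%) lower in p66High parental tumours. Both settings together put 44.0% of them at or above 0.25, against 72.7% of the listed genes and 5.80% of 13281 coding genes on chromosomes other than 1 and 15. Under 0.25 in both were 13.1% of the other chromosome 1 genes, 1.82% of the listed genes and 62.3% of the genes elsewhere. The listed genes were also more abundant per length, with a median of 11.7 CPM per kb of exon, against 4.47 for the other chromosome 1 genes and 5.50 elsewhere.

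Tumour by tumour the shift was narrow. Relative to each gene's mean over the 12 tumours, the median log2 level of the 55 genes was 0.26, 0.22 and 0.27 in p66High aggressive tumours, against -0.21, -0.25 and -0.25 in p66Low aggressive tumours. It was 0.19, 0.13 and 0.21 in p66High parental tumours, against -0.24, -0.25 and -0.23 in p66Low parental tumours. For the other 827 genes these medians were 0.18, 0.20 and 0.16 in p66High aggressive tumours, against -0.20, -0.15 and -0.15 in p66Low aggressive tumours. They were 0.23, 0.23 and 0.23 in p66High parental tumours, against -0.25, -0.23 and -0.28 in p66Low parental tumours. All 6 p66High tumours were thus above all 6 p66Low tumours in both sets.

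**Figure D4:**
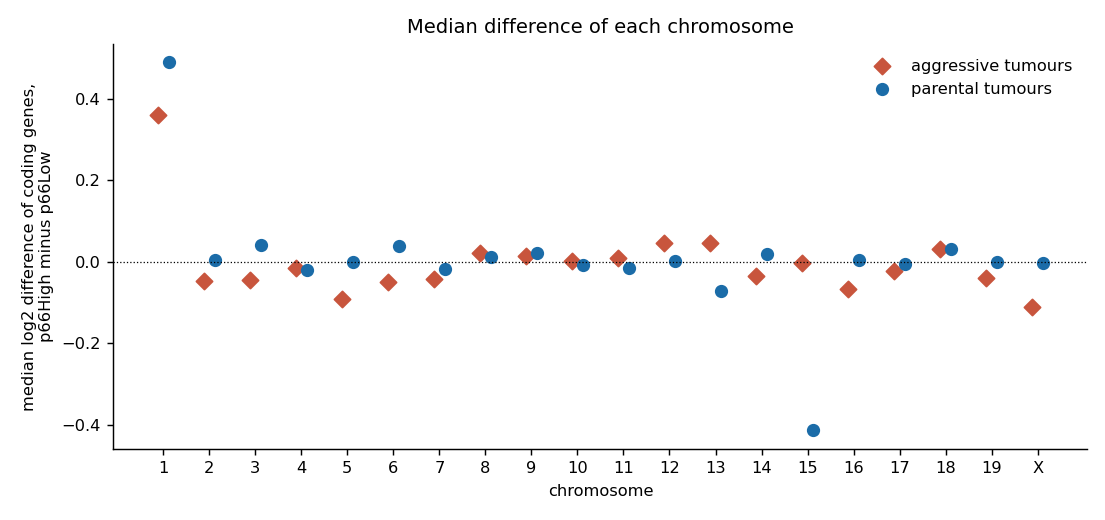
Median log2 difference, p66High minus p66Low, of the tested coding genes of each chromosome (horizontal axis); diamonds are aggressive and circles parental tumours. Chromosome 1 is highest, at 0.36 and 0.49, chromosome 15 is at -0.00 and -0.41, and the other 18 lie between -0.11 and 0.05.

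No other chromosome had a median like that of chromosome 1, which was picked with these differences known, so its rank tests nothing. The medians of chromosome 1 were 0.36 in aggressive and 0.49 in parental tumours, whereas 18 other chromosomes lay between -0.11 and 0.05 in aggressive and between -0.07 and 0.04 in parental tumours. Chromosome 15 was at -0.00 in aggressive and -0.41 in parental tumours. Along chromosome 1, stretches of 20 Mb had medians of 0.15 to 0.45 in aggressive and 0.32 to 0.60 in parental tumours, the listed genes left out. A running median over 51 neighbouring coding genes stayed between 0.33 and 0.61 in parental tumours, and 0 of its 832 positions fell under 0.25. In aggressive tumours it ran between -1.71 and 0.58, with 151 of 832 positions under 0.25.

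**Figure D5:**
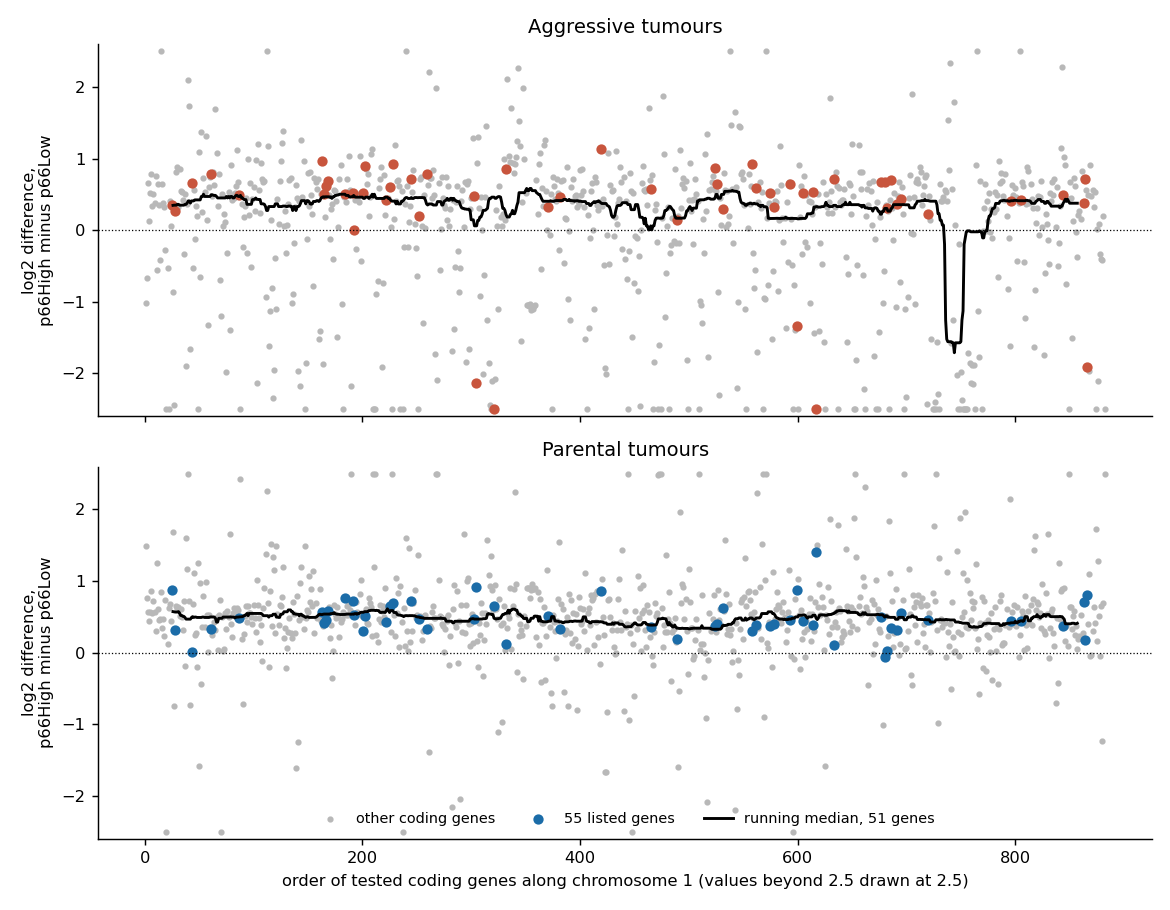
Log2 difference, p66High minus p66Low, of the 882 tested coding genes in order along chromosome 1, for aggressive (top) and parental tumours (bottom); coloured points are the 55 listed genes and the line is the running median over 51 genes. The line stays between 0.33 and 0.61 in parental tumours and drops to -1.71 in 1 stretch in aggressive tumours.

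The lowest stretch in aggressive tumours, picked after its values were seen, ran from Arhgap30 to Kmo (171388954 to 175662116) and holds 51 tested coding genes, of which Usf1 is listed here. Its median log2 difference was -1.71 in aggressive and 0.46 in parental tumours, and 10 of its genes were higher and 25 lower in p66High aggressive tumours. Among the 25 were Pyhin1 (-3.42), Aim2 (-2.37), Ifi203 (-2.15), Mnda (-1.88) and Ifi204 (-1.86). Of the 10, Fmn2 (3.21) and Igsf9 (1.79) had the largest log2 differences. The lower ones included receptors of lymphocytes: Slamf6 averaged 0.271 ± 0.123 CPM in p66High aggressive tumours and 7.81 ± 5.64 CPM in p66Low aggressive tumours, and Cd48 averaged 2.07 ± 1.14 CPM in p66High aggressive and 11.1 ± 4.60 CPM in p66Low aggressive tumours (edgeR adjusted p = 0.00644 and 0.00311). The higher ones included genes used by most cells: the fumarase gene Fh1 averaged 135 ± 6.31 CPM in p66High aggressive tumours and 83.6 ± 3.31 CPM in p66Low aggressive tumours, and the coatomer gene Copa averaged 466 ± 41.0 CPM in p66High aggressive and 350 ± 35.5 CPM in p66Low aggressive tumours (edgeR adjusted p = 0.00133 and 0.0106). The aggressive median of the 49 genes left without those libraries was -0.80, with 3 higher and 4 lower.

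Partners of the listed gene products that are encoded on other chromosomes had a median near 0 when pooled, while single complexes varied. Complexes and pathways with a listed member had 80 other tested subunits, 5 of them on chromosome 1. The 75 on other chromosomes had a median log2 difference of 0.09 in aggressive and -0.07 in parental tumours. Of these, 4 were higher (Acd, Tnfrsf10b, Lama4 and Cul5) and 3 lower (Prkdc, Arpc1b and Fas) in p66High aggressive tumours. In p66High parental tumours 1 passed the test (Lamb1, 0.51 higher, edgeR adjusted p = 0.023). Over all tested genes 8.92% were called higher and 12.1% lower in aggressive tumours, and 3.98% and 4.1% in parental tumours. Among the partners on chromosome 1, Mcm6 was higher in p66High aggressive tumours (0.69, edgeR adjusted p = 0.048). Its parental difference was 0.22. Actr3 and Arpc5 were higher in p66High parental tumours (0.58 and 0.50), but stood at -0.09 and 0.16 in aggressive tumours. By complex, the 4 other MCM helicase subunits off chromosome 1 had a median of 0.25 in aggressive and -0.24 in parental tumours, beside 0.66 and 0.02 for Mcm3. The 5 partners of Cenpl in the CENP network had medians of 0.25 and -0.35, the 3 partners of Nuf2 in NDC80 0.02 and -0.41, and the 3 partners of Nop58 in the box C/D snoRNP 0.09 and -0.54. Partners on chromosome 15 were kept in these sets, among them Snu13 (0.09 and -0.54) with Nop58 and Cenpm (0.25 and -0.78) with Cenpl. The medians of the other complexes ran from -0.36 (DNA-PK, with Xrcc5) to 0.33 (laminin, with Lamc1) in parental tumours. In aggressive tumours they ran from -0.24 (Arp2/3, with Arpc2) to 0.17 (DNA polymerase alpha-primase, with Prim2).

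Some other genes of the chromosome went well beyond the common shift or did not follow it. Of the other 827 tested coding genes, 331 had at least 2 CPM in the higher group and no overlap between groups in either setting. Among these, 292 were higher in p66High tumours in both settings and 3 lower in both. The same count was not made for other chromosomes or for all tested genes. Brinp3, a gene of the nervous system by its usual expression, had 117, 116 and 76.7 CPM in p66High aggressive tumours, against 0.208, 0.155 and 0.200 CPM in p66Low aggressive tumours (9.12 ± 0.49, edgeR adjusted p = 4.28e-06). The parental levels were 116, 129 and 92.4 CPM with p66High, against 0.783, 1.50 and 0.208 CPM with p66Low (7.18 ± 0.43, edgeR adjusted p = 2.26e-05). Tcf24 (3.57 and 0.84), Phlda3 (2.70 and 0.25), Tfap2b (1.74 and 0.73) and Sdpr (1.26 and 1.20) followed by the mean of both log2 differences. At the other end were A830018L16Rik (-3.46 and -2.71), Traf3ip3 (-4.14 and 1.73), Arhgap30 (-2.43 and 0.67), Gpr35 (-0.97 and -0.75) and Cd48 (-2.40 and 0.72). For Traf3ip3, Arhgap30 and Cd48 the 3 lymph node libraries were the highest of their groups. Traf3ip3 had 26.3 and 41.3 CPM in p66Low aggressive replicates 1 and 2, against 3.81 CPM in replicate 3. In p66High parental tumours it had 2.28, 2.92 and 10.3 CPM. Values of these genes without those libraries are not given here.

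Of 273 chromosome 1 genes of at least 50 CPM that are not listed, those nearest to no difference in either setting were Zbtb18, Tagln2, Tfcp2l1, Btg2, Dhx9 and Lamb3. Zbtb18, a zinc-finger repressor, had log2 differences of -0.02 and 0.02, at 110 ± 11.3 CPM in p66High aggressive and 111 ± 8.24 CPM in p66Low aggressive tumours, and at 81.3 ± 9.20 CPM in p66High parental and 80.4 ± 17.8 CPM in p66Low parental tumours. Dhx9, an RNA helicase, had 0.16 and -0.05, and the immediate early gene Btg2 0.15 and 0.13. None of the 6 passed the edgeR test in either setting, with the smallest adjusted p of 0.452 for Dhx9 in aggressive tumours.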

How the data were processed

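Gene expression was measured by RNA sequencing in 12 bulk tumours, 3 in each of 4 groups, from total RNA made into stranded libraries after ribosomal RNA depletion, per the labels' protocols. Reads were processed with Trimmomatic 0.32, STAR 2.3.0e and featureCounts 1.4.4 on mm10, per the submitters' processing notes, and the deposited values are whole-number read counts per gene, not normalized. Not given in the sources used here are the annotation, the strand setting and the handling of multiply mapped reads. Overlapping genes may therefore share reads: 15 of the 55 listed genes overlap another tested gene, and 8 a coding one (Cdc73, Elk4, Hspd1, Hspe1, Pogk, Ralgps2, Tpr and Usp37). Of 39017 identifiers, 37607 (96.4%) matched GENCODE, which gave chromosomes and mm10 positions. Hdac4, Cdc73 and Uck2 each had a second identifier without a match, with 45.8%, 10.8% and 10.7% of the counts of the first. The matched one was used.

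Counts were fitted with edgeR 4.0.16 in R 4.3.3: filterByExpr, TMM, and the quasi-likelihood F-test on the 4 groups of 12 tumours, which leaves 8 degrees of freedom. Benjamini-Hochberg adjustment ran over 19370 genes, and the threshold was 0.05. SE values were taken as the size of the log2 difference divided by the root of F. DESeq2 1.42.0 and limma-voom (limma 3.58.1), other scalings and filters, fits of the tumours compared alone, sums of tumours whose titles share a number, and fits without each tumour or without the 3 lymph node libraries were alternatives. The fit was tested on simulated counts. Replicates differed by more than sampling noise, with a chi-square per degree of freedom of at least 19.1. They may still be technical, so p-values reflect only how far these samples spread. Counts of at most 3 were treated as the floor of detection. Depth, at 17.4 to 76.1 M counts per tumour, limits low genes such as Traf5 most.

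Chromosome 1, the 55 genes, their roles, the list of complex partners and the markers were chosen with earlier results of these data known. Values in every tumour were given by rule for the 6 genes highest and the 6 lowest by the mean of both p66High against p66Low differences, for Hspd1 and Hspe1, and for genes past a selection or interaction test (at most 8 of each by p). Mcm3, Aspm and Elk4 were added after their values were seen. Other chromosome 1 genes were named as the 5 highest and 5 lowest of those at 2 CPM or more without overlap in both settings, and the 6 nearest to 0 at 50 CPM or more. Genes of the stretch from Arhgap30 to Kmo were chosen after their values were seen. The values of some partner subunits on chromosome 1 are not reported here.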

Additional observations from a re-analysis of the deposited data

Results flagged for a closer look

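For 8 of the 55 genes the p66High against p66Low shift differed between aggressive and parental tumours by the interaction test of edgeR. Of all tested genes 12.4% were called in that test. The log2 value is given as the aggressive minus the parental shift. The values were -3.05 for Dock10, -3.20 for Sp100, -4.23 for Ralgps2, -2.73 for Traf5, -0.53 for Casp8 and -2.21 for Glul, which had the smaller value in aggressive tumours. Usp37 at 0.45 and Ncl at 0.74 had the larger one. Both shifts helped to choose the genes. For Dock10, Ralgps2 and Traf5 the 3 highest tumours were the 3 libraries with the highest summed B cell markers (84.2, 118 and 23.4 CPM, beside at most 1.35 CPM in the other 9), and the part of those cells in the result was not tested.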

How the results depend on the processing

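No paired analysis was possible because the labels give the groups no shared replicate numbers. No alternative turned the direction of a called value, and of the scalings, library size alone moved the median of all genes by over 0.1 (log2), to 0.0851 in p66Low selection, against -0.0200 with TMM, and to -0.0637 in the interaction, against 0.0469. Values are given as aggressive then parental for p66High against p66Low, as p66High then p66Low for selection, and last for the interaction. Leaving out each tumour in turn gave 2437 to 4502, 871 to 1926, 457 to 1469, 1545 to 3505 and 1179 to 3278 genes called, and 28 to 44, 18 to 33, 1 to 5, 6 to 14 and 4 to 7 listed genes called. The medians of the listed genes were then 0.48 to 0.53, 0.43 to 0.46, -0.0332 to 0.0286, -0.0278 to 0.0424 and 0.0172 to 0.12. Those of the other chromosome 1 genes were 0.30 to 0.37, 0.49 to 0.51, -0.08 to -0.06, 0.0466 to 0.14 and -0.20 to -0.11. Without the 3 lymph node libraries 1075, 838, 586, 705 and 335 genes and 8, 15, 1, 3 and 0 listed genes were called, in a fit of fewer tumours. The listed genes' median for p66Low selection was then -0.0592 and the other genes' aggressive median 0.37. DESeq2 called 2544 genes in parental tumours and 2261 in p66High selection, and limma-voom 5 listed genes in the interaction. A fit of only the tumours compared called 2126 genes in p66Low selection and gave the listed genes an aggressive median of 0.49. Summing tumours whose titles share a number left 908 genes called in parental tumours, 305 in p66High selection and 1179 in the interaction, with 1 listed gene in p66High selection and 4 in the interaction. Scaling by library size alone gave the listed genes 0.43 in aggressive and 0.48 in parental tumours, 0.0857 in p66Low selection and -0.0194 in the interaction. Both changed sign, the first standing next to the median of all genes. The listed genes' medians for selection lie near 0, and also changed sign without p66Low parental replicate 1, 2 or 3 or with only the tumours compared (p66Low) and without p66High aggressive replicate 1 or 3 (p66High). It gave the other genes 0.27, 0.54, 0.18 and -0.23. RLE factors and DESeq2 gave the listed genes' interaction 0.0651 and 0.0649, the other genes' aggressive median 0.32 and 0.32, p66Low selection 0.0905 and 0.0886, and interaction -0.15 and -0.15. The other genes' aggressive median was 0.28 without a filter, 0.38 with at least 1 CPM in 3 tumours and 0.31 with summed tumours, their interaction -0.16, -0.10 and -0.17, and their p66Low selection with summed tumours 0.10. The cause of these moves was not tested.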
